A study of Mus musculus with 60 samples.

Results

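Aldh1a1, a retinaldehyde dehydrogenase, was detected in 11 of 32 DiD+ PyMT-Bo1 breast cancer cells sorted from mouse bone, and these 11 cells are described here against the 21 DiD+ cells in which it was not. The sets were chosen by the Aldh1a1 count itself: 1 or more rounded estimated counts made a cell Aldh1a1-positive and 0 made it Aldh1a1-negative. The series holds 60 single cells in all, and the other 28 carried the DiD- label. Because the sets come from a measured value of the same cells, every difference between them below is a description and no test was run. The labels tie no cell to a mouse, so cells are not replicates of a condition and each set stands as 1 sample.

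PyMT-Bo1 is a bone-seeking mouse mammary tumor line, here a single line that also expressed mApple, firefly luciferase, eGFP and Thy1.1. The cells of both sets and of the DiD- group were stained with DiD, a membrane dye that is diluted when a cell divides, before they were placed in the circulation of wild-type C57BL6 mice through the left ventricle. Mice were female and 8 to 10 weeks old, and no treatment separated the groups. Femurs and tibias of 5 mice were collected 11 days later and pooled, and live CD45-negative tumor cells were sorted 1 to a well as DiD+ or DiD- for full-length RNA sequencing. The study was designed to compare cells that had kept the dye with cells that had divided.

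ALDH1A1 oxidises retinaldehyde, the aldehyde form of vitamin A, to retinoic acid, which acts through nuclear receptors on target genes. Retinol dehydrogenases and alcohol dehydrogenases make the retinaldehyde, binding proteins carry retinoids through the cell, and CYP26 enzymes break retinoic acid down. High aldehyde dehydrogenase activity is also widely used to enrich stem-like cells of breast tumors, and for that reason stem-like and cell cycle genes are given beside the retinoid genes.

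Aldh1a1 (ENSMUSG00000053279) lies at chr19:20492715-20643465 on the plus strand (GRCm38), and its close paralog Aldh1a7 (ENSMUSG00000024747) lies next to it at chr19:20692953-20727562 on the minus strand. The 2 transcripts were identical at 1836 of 2050 aligned bases (89.6%), and 7.53% of the 50-base windows of the Aldh1a1 transcript also occurred in Aldh1a7. The oligos of the study's Aldh1a1 assay are shown because they mark where the paralogs can be told apart. Capitals mark bases that differ from Aldh1a7.
forward primer: catcactgtgtcatctgctct
probe: agttAacccacaccaCcccagc
reverse primer: AcccagttctcTTccatttcc
The forward primer lies in the coding part of exon 11 at chr19:20636787-20636807 and matched Aldh1a7 at every base. The probe, on the opposite strand, spans the junction of exons 11 and 12 and differed at 2 bases, and the reverse primer spans exons 12 and 13 and differed at 3 bases. Both the probe and the reverse primer lie in coding sequence.

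The promoters are shown because they share much of their sequence as well. These are the 150 bases before each RefSeq start (GRCm38.p6), read on the strand of the gene, with the motifs searched for in capitals: the octamer ATGCAAAT, the CCAAT box and the TATA-like ATAAAA, on either strand.
Aldh1a1: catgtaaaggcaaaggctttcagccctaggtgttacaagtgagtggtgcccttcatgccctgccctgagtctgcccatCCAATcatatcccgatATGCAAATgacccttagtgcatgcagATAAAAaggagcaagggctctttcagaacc
Aldh1a7: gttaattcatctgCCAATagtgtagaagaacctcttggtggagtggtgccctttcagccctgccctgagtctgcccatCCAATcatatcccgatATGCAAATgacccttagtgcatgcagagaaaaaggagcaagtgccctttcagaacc
The RefSeq start of Aldh1a1 lies inside the longer annotated gene span given above. The Aldh1a1 window is chr19:20601818-20601967 on the plus strand, and the Aldh1a7 window is chr19:20727557-20727706 on the minus strand. Of the 100 bases nearest the start, 94 were identical. Each holds the octamer from -56 to -49 and a CCAAT box from -72 to -68, counted from the start. The octamer letters occurred in 0.998% of 32851 promoter windows of the same length and the CCAAT letters in 24.5%. ATAAAA, at -30 to -25 in Aldh1a1 and not in the Aldh1a7 window, occurred in 10.1%. A match to such letters is not evidence that a factor bound there.

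Aldh1a1 was either absent or plainly present. Its counts in the positive cells were 178, 185, 197, 203, 212, 227, 314, 564, 789, 853 and 1307, and no DiD+ cell held between 1 and 9. The lowest positive cell (cell 37, 178 counts) and the negative cells at 0 stand on either side of the threshold with nothing between them. The positive cells made up 34.4% of the DiD+ cells (exact binomial 95% interval 18.6 to 53.2%). In the DiD- group the gene was at 0 in all 28 cells, which allows a share of up to 10.7% (3 of 28). As CPM (counts scaled to the same total over mouse genes in every cell), the median positive cell had 53.1, the lowest 37.03 and the highest 297. In a summed level, fewer cells with a gene and less of it per cell cannot be told apart, so the number of cells with a count is given too. A gene without counts in a cell may still have been expressed below the depth of that cell, and binomial and Poisson intervals here cover counting error only.

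Aldh1a7, which can share reads with Aldh1a1, was counted in 7 of 11 positive cells, 2 of 21 negative cells and 2 of 28 DiD- cells. Its level over each whole set was 29.99 CPM in the positive cells, 5.13 CPM in the negative cells and 0.577 CPM in the DiD- cells. Positive cells ranged from 0 to 75.7 CPM with a median of 9.18 CPM, and the 2 negative cells with a count, cells 41 and 68, held 263 and 214 counts. The highest Aldh1a1 cell (cell 43) had no Aldh1a7 count, whereas cell 17 had 389 Aldh1a7 counts beside 314 of Aldh1a1. All 120 values of the pair were whole numbers in the table of estimated counts. Reads that fit both genes are split by estimation, so how much of the Aldh1a7 level belongs to Aldh1a1 was not tested.

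**Figure D1:**
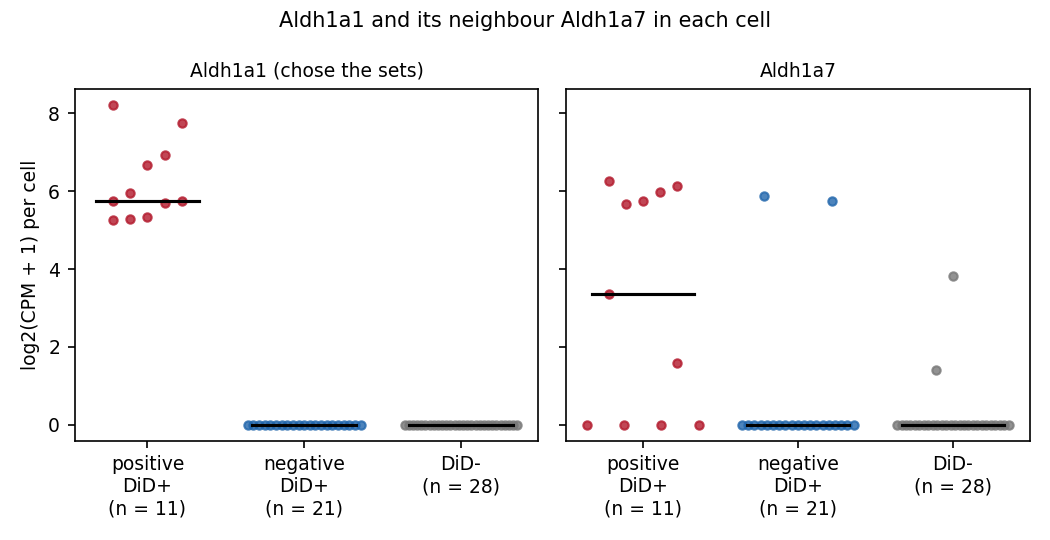
Level of Aldh1a1 (left) and Aldh1a7 (right) in each cell as log2(CPM + 1), for 11 Aldh1a1-positive and 21 Aldh1a1-negative DiD+ cells and 28 DiD- cells. Points are cells and bars are medians, and Aldh1a7 points above 0 number 7, 2 and 2 in the 3 sets.

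Depth was alike in the 2 sets. Counts on mouse genes had a median of 4624257 in positive cells (3724541 to 7794219) and 4685171 in negative cells (2276789 to 5618560), and the sums over the sets were 53049855 and 93025089. A median of 8270 genes had a count in positive cells and 8299 in negative cells, and spike-in RNA took a median of 1.87% and 1.89% of counts. Some wells also held RNA of other cells: at least 7 of 13 macrophage or monocyte markers reached 10 counts in 1 of 11 positive cells (cell 37) and in 5 of 21 negative cells (19, 21, 24, 30 and 88). The summed macrophage markers ranged from 0 to 8377 CPM in positive cells and from 0 to 19375 CPM in negative cells. Erythroid markers, which include hemoglobin genes, gave the largest host signal, with at least 4 of 7 at 10 counts in positive cell 37 and negative cells 19 and 30 and sums of up to 69786 and 174095 CPM in the positive and negative sets. Positive cell 29 had 4 of 5 megakaryocyte markers at 10 counts, at a summed level of no more than 29.5 CPM, and with cells 19, 21, 24, 30, 37 and 88 it makes up the wells with host cell markers. Neutrophil markers reached 13.5 CPM at most in positive cells, with 7 of 9 at 0, and 13.9 CPM in negative cells, with 6 of 9 at 0. Of 7 markers of PyMT-Bo1 cells, which include keratins and transgenes, all positive cells had at least 4 at 10 or more counts. Negative cells 25, 30 and 35 had 3, 2 and 2, and cell 30 had no transgene count. Results without such wells are given for some lists below, and a list given without them may have moved too.

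Levels below are CPM of the counts summed over a set, and ratios are log2 of positive over negative with 1 CPM added to both. Of 12640 genes with at least 1 CPM in a set, 1424 (11.3%) were at least 2-fold higher in positive cells and 1963 (15.5%) at least 2-fold lower, and the median ratio was -0.05. These shares are the background for each list. Since a gene enters when 1 set alone reaches 1 CPM, low genes that pass differ by construction. With each cell scaled to its spike-in RNA the median over all genes fell to -0.44, and 23.1% of the genes past 2-fold were then the higher ones, against 42.04% without.

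Among genes of retinoid synthesis and uptake, 17 of 32 other than Aldh1a1 could be compared, of which 4 were at least 2-fold higher (Adh7, Rdh11, Adh1 and Aldh1a7) and 2 at least 2-fold lower (Dhrs9 and Rbp2). The median ratio was 0.14, ranged from 0.00 without cell 22 to 0.48 without cell 41, and was -0.22 with spike-in scaling. Adh7, an alcohol dehydrogenase that oxidises retinol (chr3:138217760-138233382), stood out with 120 CPM in positive cells against 19.97 CPM in negative and 25.9 CPM in DiD- cells (log2 ratio 2.53). Single positive cells ranged from 0 to 376 CPM around a median of 84.2 CPM, and negative cells from 0 to 140 CPM around a median of 0. It had a count in 8 cells of each set, so the sets overlapped, with 3 positive cells above every negative cell. Leaving out any 1 cell kept the ratio between 2.07 and 2.95.

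Rdh11, a retinol dehydrogenase, had 59.8 CPM in positive and 28.5 CPM in negative cells (log2 ratio 1.04, 0.62 without cell 38). Dhrs9, another member of the short-chain dehydrogenase family, lay the other way, at 7.80 CPM against 28.8 CPM (log2 ratio -1.76), and DiD- cells had 65.2 CPM. Adh1 passed the fold on the counts of 1 cell (cell 22), and its ratio without that cell was 0.00. Dhrs3, which reduces retinaldehyde back to retinol, had 33.1 and 29.98 CPM, a ratio of 0.14 that fell to -0.20 without cell 80.

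The other retinaldehyde dehydrogenases, Aldh1a2 and Aldh1a3, were below 1 CPM in both sets. Summed over the 32 genes, the level per cell had a median of 2565 CPM in positive cells (1283 to 4107) and 1427 CPM in negative cells (781 to 4150), and 9 of 11 positive cells were above the negative median. Without the wells with macrophage markers, 4 genes were at least 2-fold higher and 2 lower of 18, with a median ratio of 0.06.

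Retinoic acid receptors and binding proteins had ratios near 0 at the median. Of 14 of 18 such genes that could be compared, 1 was at least 2-fold higher and 2 lower, shares of 7.14% and 14.3%, with a median ratio of 0.05 that was -0.35 with spike-in scaling. Rara and Rarg, which encode the alpha and gamma receptors, had ratios of 0.41 and 0.53, and Rxra and Rxrb, their partners, had 0.02 and 0.22. Rarb was at 0 in positive cells and 1.59 CPM in negative cells, with counts in 2 of them. Crabp1, a retinoic acid-binding protein, had the lowest ratio of the group at -3.91, but 97.6% of its DiD+ counts came from cell 41, and without that cell the ratio was 1.34. The CYP26 enzymes Cyp26a1, Cyp26b1 and Cyp26c1 were below 1 CPM in both sets.

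Target genes of retinoic acid were likewise split around 0, with 2 of 18 at least 2-fold higher, 3 at least 2-fold lower and a median of -0.06. The sign of this median was not stable, at 0.13 without cell 41 and 0.04 with BASiCS values, and with 1 cell left out 2 to 4 genes were at least 2-fold higher and 2 to 5 lower. The median was -0.25 without the wells with macrophage markers and -0.26 without those with host cell markers. Meis1, a homeobox partner gene (chr11:18879817-19018985), had 104 CPM in positive, 35.7 CPM in negative and 51.1 CPM in DiD- cells (log2 ratio 1.52, and 1.40 to 1.75 when any 1 cell was left out). Positive cells ranged from 0 to 203 CPM with a median of 108 CPM, and negative cells from 0 to 153 CPM with a median of 25.1 CPM. Only cell 29 of the positive cells was below the negative median, and 2 of 21 negative cells were above the positive median. Nr2f2, an orphan nuclear receptor, lay lower at 7.28 against 24.96 CPM (log2 ratio -1.65), while its relative Nr2f1 had 27.3 and 15.8 CPM (0.75). Bhlhe40 was at 765 and 383 CPM, and without cell 29 its ratio was -0.04. The sum per cell had a median of 3763 CPM in positive and 2641 CPM in negative cells, and all 11 positive cells were above the negative median. A sum weighs the genes with most counts, and 9 genes of the list had ratios above 0 and 9 below. The sum therefore does not describe the target genes as a group.

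**Figure D2:**
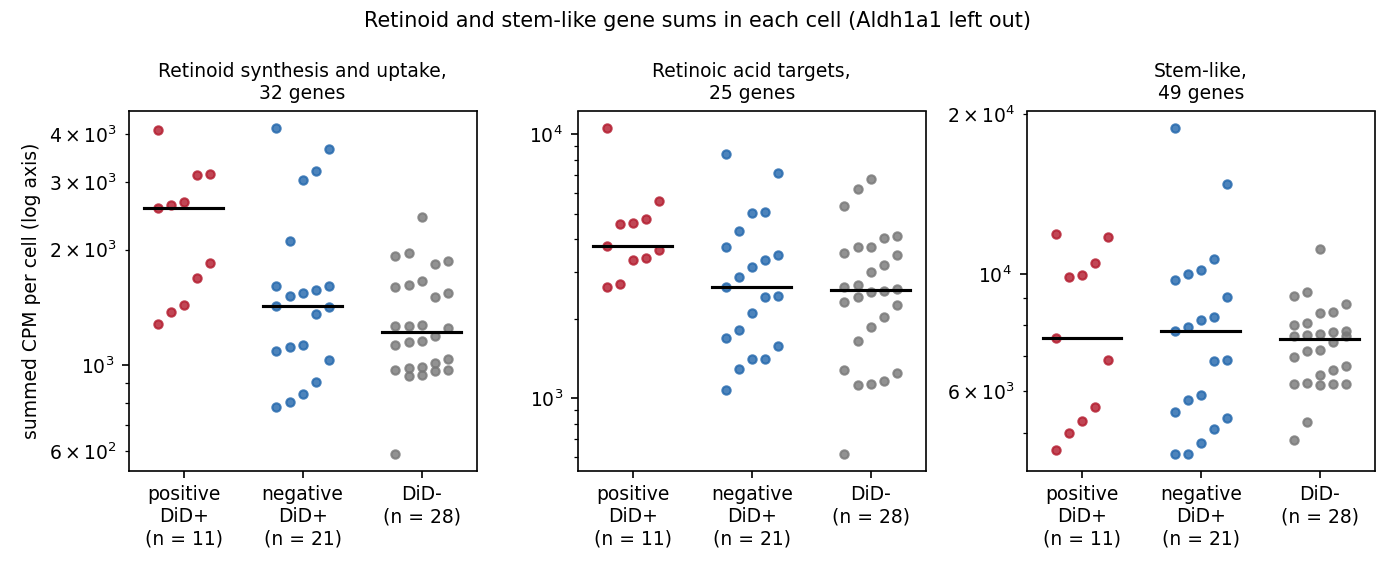
Summed CPM per cell on a log axis of retinoid synthesis and uptake genes (32, without Aldh1a1), retinoic acid targets (25) and stem-like genes (49, without Aldh1a1) in the 3 sets. Points are cells and bars are medians. Positive and negative cells overlap in every panel, and the stem-like medians are 7577 and 7783 CPM.

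Across the wider aldehyde dehydrogenase family, 2 of 14 genes other than Aldh1a1 were at least 2-fold higher, Aldh1a7 and Aldh3a1, and 1 was lower. Aldh3a1, which clears aldehydes of lipid peroxidation (chr11:61207537-61218421), had 92.5 CPM in positive, 13.6 CPM in negative and 6.85 CPM in DiD- cells (log2 ratio 2.68). Its positive cells ranged from 0 to 329 CPM with a median of 42.2 CPM, and negative cells from 0 to 56.2 CPM with a median of 5.12 CPM. Positive cells 23, 80 and 83 were the high ones, at 260 CPM, 277 CPM and 329 CPM, and 5 positive cells were above every negative cell while 3 had none. The ratio was 2.28 without cell 83, the most it fell when 1 cell was left out. Aldh2, the mitochondrial enzyme, and Aldh9a1 had ratios of 0.28 and 0.29. The family median was 0.43 and kept its sign in each set left after removing 1 cell (0.28 to 0.55), but with spike-in scaling it was -0.28.

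Stem-like genes were not higher at the median. Of 49 genes other than Aldh1a1, 35 could be compared, and the median ratio was 0.04 (-0.33 with spike-in scaling). Of these 35, 8 were at least 2-fold higher (22.9%, against 11.3% of all genes). Another 6 were at least 2-fold lower (17.1%, against 15.5% of all genes). Without the macrophage-marker wells, 6 of 34 were higher and 10 lower with a median of -0.04. The sum per cell had a median of 7577 CPM in positive and 7783 CPM in negative cells, and 5 of 11 positive cells were above the negative median. The higher genes rested on different cells, as the following values show.

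Snai2, a transcription factor of mammary basal and mesenchymal states (chr16:14705852-14709385), had 28.3 CPM in positive and 6.57 CPM in negative cells, a log2 ratio of 1.95 (1.69 to 2.34 with 1 cell left out). It had a count in 8 of 11 positive and 7 of 21 negative cells, with cell medians of 18.5 and 0 CPM, and 4 positive cells were above every negative cell. Sox9, a regulator of mammary progenitors (chr11:112782224-112787760), had 379 against 184 CPM (1.04). Positive cells ranged from 123 to 1192 CPM and negative cells from 0.271 to 658 CPM, all 11 positive cells were above the negative median of 104 CPM, and the ratio was 0.67 without cell 17. Myc had 152 and 71.5 CPM (1.08, 0.70 without cell 17), with 7 of 11 positive cells above the negative median. Klf4, a factor of stem cells and of stress responses, had 187 and 94.3 CPM, just inside the fold at 0.98, with 10 of 11 positive cells above the negative median.

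Notch1 had 45.6 and 13.4 CPM (1.69), and 7 positive and 11 negative cells had a count. Lgr4 had 4.13 and 0.355 CPM. Lgr6 and Sox2 also passed the fold, but 90.1% of the DiD+ counts of Lgr6 were in cell 37, the positive cell with macrophage markers, and 89.7% of those of Sox2 in cell 38. Their ratios without these cells were -0.57 and -0.31. Of the genes that lay lower, Cd24a was counted in 2 negative cells, of which cell 30 held 91.5% of the counts, Hey1 in 2 and Tert in 1. Fzd7, a Wnt receptor, had counts in 6 of 21 negative cells and 1 positive cell (3.97 and 0.0189 CPM). Id1, an inhibitor of differentiation, had 51.8 and 137 CPM (-1.39, and -0.72 without cell 35). The surface markers Cd44 (209 and 277 CPM, -0.41), Itga6 (128 and 88.4 CPM, 0.52) and Ly6a (1059 and 1196 CPM, -0.17) were within 2-fold. Prom1, Epcam, Lgr5, Nanog and Pou5f1 were below 1 CPM in both sets.

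**Figure D3:**
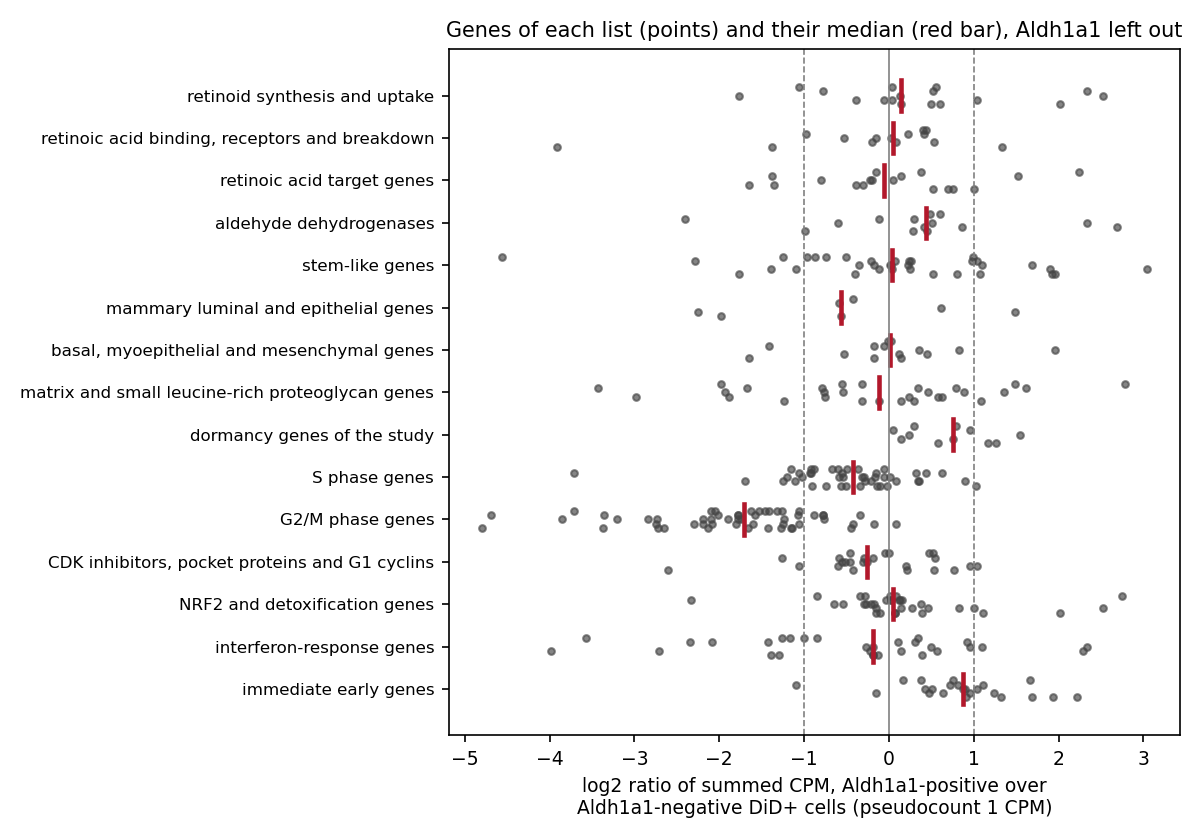
Log2 ratio of summed CPM, positive over negative DiD+ cells, for the genes of 15 lists with at least 1 CPM in a set. Points are genes, red bars are list medians and dashed lines mark 2-fold. Most G2/M genes lie left of -1 (45 of 54), and stem-like genes lie on both sides of 0.

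G2/M genes were lower in positive cells almost without exception. Of 54 genes, 45 (83.3%) were at least 2-fold lower and none was 2-fold higher, 53 had a ratio below 0, and the median ratio was -1.70. Leaving out any 1 cell kept between 40 genes (without cell 67) and 48 genes (without cell 82) at least 2-fold lower, and without the macrophage-marker wells 46 of 54 were. In a cell, the sum over the list had a lowest value of 1128 CPM, a median of 1429 CPM and a highest value of 7027 CPM in positive cells. In negative cells these were 617, 3700 and 32346 CPM, and in DiD- cells 853, 7113 and 24854 CPM. Positive cells 38, 80 and 82 held 5458, 6658 and 7027 CPM, and the other 8 lay between 1128 and 1723 CPM. Negative cells spread over both ends, since 7 of 21 were above every positive cell and 5 below every one. Of the 11 positive cells, 8 were below the negative median and 3 above it. All 11 positive cells were below the DiD- median, as were 14 of 21 negative cells.

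Kif2c, a kinesin of chromosome alignment (chr4:117159639-117182639), had 2.26 CPM in positive and 89.6 CPM in negative cells, a log2 ratio of -4.79, with counts in 1 of 11 and 8 of 21 cells. Ube2c, the ubiquitin-conjugating enzyme of mitotic exit (chr2:164769898-164778822), had 6.13 and 183 CPM (-4.69), with counts in 3 and 14 cells and 9 negative cells above every positive cell. Plk1, a mitotic kinase, had 13.6 and 148 CPM (-3.35). Its positive cells ranged from 0 to 111 CPM and its negative cells from 0 to 875 CPM, and 8 positive cells had none. Ccnb1, the cyclin of mitotic entry, had 81.5 CPM in positive, 590 CPM in negative and 478 CPM in DiD- cells (-2.84). Its positive cells reached 264 CPM and its negative cells 3819 CPM, with a median of 0 against 69.8 CPM. The proliferation marker Mki67 had 20.98 and 93.2 CPM (-2.10) with counts in 4 of 11 and 12 of 21 cells. Aurka and Ect2 had ratios of -3.85 and -3.37, and Lbr, at 0.08, was the 1 gene of the list above 0.

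The 4 G2/M genes of lowest ratio with a RefSeq promoter window are shown because genes of this phase are known to share the cell cycle homology region, TTTGAA, and CCAAT boxes. These are the 120 bases before the RefSeq start (GRCm38.p6) read on the strand of the gene, with TTTGAA and CCAAT in capitals on either strand.
Kif2c: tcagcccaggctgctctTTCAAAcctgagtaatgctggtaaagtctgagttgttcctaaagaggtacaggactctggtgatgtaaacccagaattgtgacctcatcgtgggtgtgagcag
Ube2c: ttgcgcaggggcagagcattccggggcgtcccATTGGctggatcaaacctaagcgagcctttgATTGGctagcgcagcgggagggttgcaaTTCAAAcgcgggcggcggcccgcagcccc
Aurka: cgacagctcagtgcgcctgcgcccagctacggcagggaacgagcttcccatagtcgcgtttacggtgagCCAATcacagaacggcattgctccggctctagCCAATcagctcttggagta
Ect2: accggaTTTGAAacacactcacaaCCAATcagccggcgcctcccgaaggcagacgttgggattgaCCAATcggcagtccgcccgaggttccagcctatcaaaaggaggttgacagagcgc
They lie at chr4:117178773-117178892 (minus strand), chr2:164769809-164769928 (plus), chr2:172370571-172370690 (minus) and chr3:27153879-27153998 (minus). The whole Kif2c window lies inside the longer annotated gene span given above, so it is not the sequence before the start of that span. The 2 motifs do not overlap in these windows. Over windows of 300 bases around the start, TTTGAA occurred in 34 of 48 G2/M genes with a window (70.8%), in 6 of 32 S phase genes (18.8%) and in 3 of 19 immediate early genes (15.8%), against 20.2% of 27025 genes in all. CCAAT occurred in 37 of 48 (77.1%), 23 of 32 (71.9%) and 8 of 19 (42.1%), against 41.1% of all. These are features of the lists and were not measured in the cells.

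S phase genes were lower at the median too, by an amount that depended on the scaling and on cells 82 and 25. Of 44 genes, 8 were at least 2-fold lower (18.2%, near the 15.5% of all genes) and 1 higher, and the median ratio was -0.43. With spike-in scaling 29 were at least 2-fold lower (median -1.20), and with the mean CPM of each cell, BASiCS values or cells thinned to one depth 15, 15 and 14 were (medians -0.69, -0.69 and -0.72). Without positive cell 82, which had 13211 CPM over the list while the other 10 positive cells had at most 2088 CPM, 29 genes were at least 2-fold lower and the median was -1.54. Without negative cell 25, the highest at 15297 CPM and among the cells with few tumor markers, 2 genes were, and the median was -0.16. Without all wells with few tumor markers 3 genes were, and the median was -0.21. The sum had a median of 1355 CPM in positive, 3102 CPM in negative and 4921 CPM in DiD- cells, and 10 of 11 positive cells were below the negative median. Exo1, an exonuclease of DNA repair and replication, had 2.43 and 44.1 CPM (-3.72), all of its positive counts lying in 1 cell. Mcm2, a subunit of the replicative helicase, had 92.6 and 193 CPM (-1.05, and -2.85 without cell 82).

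Genes that govern G1 lay on both sides of 0. Of 25 cyclin-dependent kinase inhibitors, pocket proteins, G1 cyclins and related genes, 1 was at least 2-fold higher and 3 lower, with a median of -0.26. Cdkn1a, the inhibitor p21, had 933 CPM in positive, 548 CPM in negative and 364 CPM in DiD- cells (0.77), and 8 of 11 positive cells were above the negative median of 337 CPM. Rb1, which encodes the retinoblastoma protein, had 45.4 and 21.5 CPM (1.04, and 0.39 without cell 43). Cdkn1b, the inhibitor p27, had 2.75 and 2.26 CPM. Btg2, an antiproliferative gene, had 241 and 124 CPM (0.95), and Ccnd1, cyclin D1, had 125 and 154 CPM (-0.31).

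**Figure D4:**
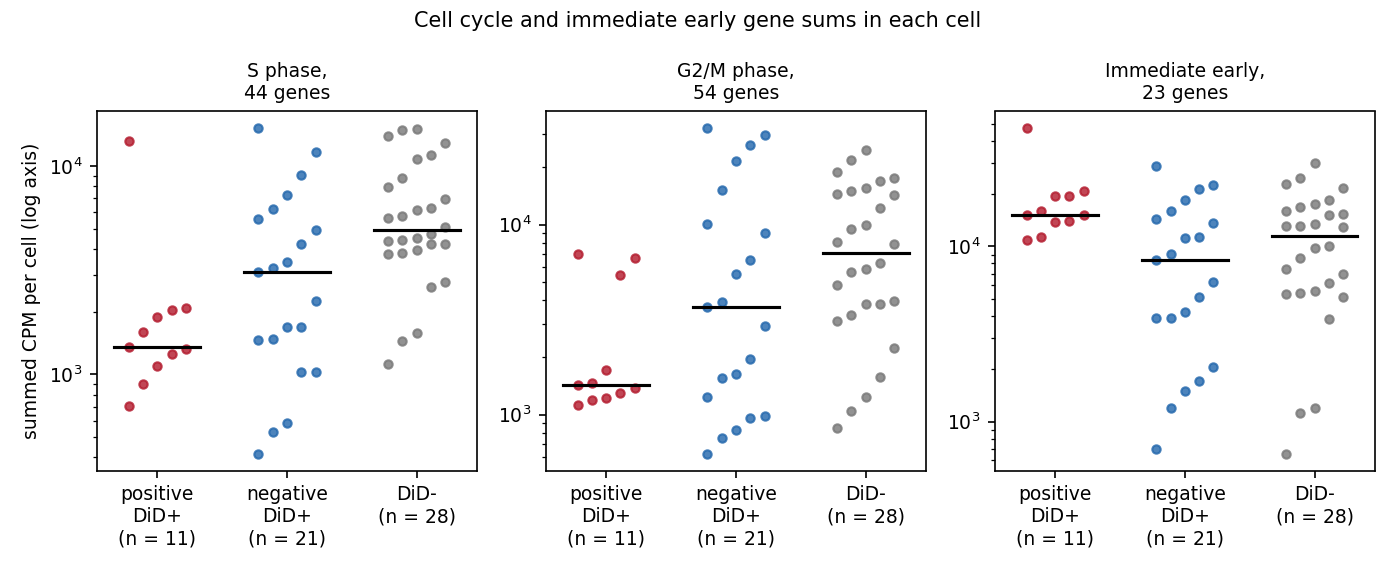
Summed CPM per cell on a log axis of S phase (44), G2/M (54) and immediate early genes (23) in positive, negative and DiD- cells. Points are cells and bars are medians. Of the positive cells, 8 lie at 1128 to 1723 CPM of G2/M genes, and 1 positive cell (cell 82, 13211 CPM) stands high in S phase genes.

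Immediate early genes, which are switched on quickly after a stimulus, were higher in positive cells. Of 23 genes, 8 (34.8%) were at least 2-fold higher, 1 lower, 21 had a ratio above 0, and the median was 0.87. The number at least 2-fold higher ran from 4 without cell 29 to 12 without cell 19, and without the wells with markers of any host cell it was 6 with a median of 0.54. The sum per cell had a median of 15095 CPM in positive cells (10946 to 47600), 8413 CPM in negative cells (lowest 700, highest 28767) and 11526 CPM in the DiD- group (lowest 650, highest 29881). Every positive cell was above the negative median, and 12 of 21 negative cells were below every positive cell.

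Nr4a2, an orphan nuclear receptor of this class (chr2:57106830-57124003), had 182 CPM in positive, 38.2 CPM in negative and 35.98 CPM in DiD- cells (log2 ratio 2.22, 1.54 without cell 17). Positive cells ranged from 0.523 to 819 CPM with a median of 75.4 CPM, and negative cells from 0 to 600 CPM with a median of 0.206 CPM. Its relative Nr4a1 had 1063 and 335 CPM (1.66), with 10 of 11 positive cells above the negative median of 64.4 CPM, though negative cell 70 had the highest level of all. Egr2 had 217 and 56.2 CPM (1.93) and Atf3, a stress-induced factor, 832 and 258 CPM (1.68, 0.82 without cell 29). The AP-1 subunits Fos (4963 and 2669 CPM, 0.89), Jun (1167 and 689 CPM, 0.76) and Junb (1815 and 966 CPM, 0.91) lay below 2-fold. For Jun, 12 of 21 negative cells were below every positive cell. Dusp2, a phosphatase, was the gene at least 2-fold lower (113 and 243 CPM, -1.10). Ccn1, a matricellular gene with the same early kinetics that is in the matrix list, had 4289 and 1680 CPM (1.35), and all 11 positive cells were above the negative median.

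Of the genes that the study tied to dormancy, the 11 described here all had ratios above 0, with a median of 0.75, and 3 were at least 2-fold higher, while with spike-in scaling 9 of the 11 were above 0. The median was 0.34 without cell 29 and 1.22 without cell 68, and 2 to 6 genes were at least 2-fold higher when 1 cell was left out, the 6 without cell 68. The study chose them on these same cells, by DiD label, so the list is not independent evidence of direction. Gas6, a ligand of TAM receptors (chr8:13465374-13494490), had 51.7 CPM in positive, 17.01 CPM in negative and 0.00837 CPM in DiD- cells (1.55, 0.63 without cell 23), with counts in 6 of 11 and 8 of 21 cells. Mme, a membrane peptidase, had 70.2 and 30.8 CPM (1.16), with counts in 8 cells of each set, and Bhlhe41 had 7.20 and 2.42 CPM (1.26). Ogn, a small leucine-rich proteoglycan, had 70.03 and 59.3 CPM (0.24), and 48.9% of its DiD+ counts were in negative cell 68, without which the ratio was 2.53. Postn had 403 and 233 CPM (0.79), and without cell 29 the ratio was -0.09. The sum had a median of 1251 CPM in positive, 542 CPM in negative and 270 CPM in DiD- cells, and all 11 positive cells were above the negative median. Without the wells with host cell markers, 8 of 11 genes were above 0 and the median was 0.21.

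Other matrix genes went both ways, with 5 of 29 at least 2-fold higher, 7 lower and a median of -0.11. Without cell 68 the median was 0.28 and 8 genes were at least 2-fold higher, with a minimum of 10 CPM it was 0.30, and with spike-in scaling 11 genes were at least 2-fold lower. The median was -0.31 without the wells with macrophage markers and -0.47 without those with host cell markers. Prelp, a small leucine-rich proteoglycan, had 54.5 and 18.9 CPM (1.48) and was counted in 6 positive, 5 negative and 1 DiD- cells. Col3a1, a fibrillar collagen, had 68.2 and 271 CPM (-1.98, but -0.12 without cell 41), and Ccn5 had 32.4 and 263 CPM (-2.98), 53.2% of its counts lying in cell 68. The sum per cell was above the negative median in all 11 positive cells, 7118 CPM against 2843 CPM at the medians. This sum includes Ccn1, given above, which was itself above the negative median in all 11 positive cells. Over the whole sets the list summed to 7594 and 4962 CPM, and most of that difference was Ccn1. The sum therefore does not describe the other matrix genes.

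Interferon-response genes had a median ratio of -0.19 (0.00 with spike-in scaling). Of 30 genes, 3 (10%, against 11.3% of all genes) were at least 2-fold higher and 11 (36.7%, against 15.5%) lower. This too turned on few cells. Without the wells with macrophage markers 4 of 26 genes were higher and 5 lower, and without those with host cell markers 4 of 26 were higher and 4 lower. Negative cell 68 had 16242 CPM over the list, and without it the median was 0.43, with 9 genes higher and 4 lower. Per cell the order was the reverse of the ratio, with a median of 1385 CPM in positive, 767 CPM in negative and 606 CPM in DiD- cells, and 10 of 11 positive cells above the negative median. Usp18, which restrains interferon signaling, had 37.2 and 6.60 CPM (2.33) and counts in 6 of 11 and 4 of 21 cells. Oasl1 was counted in 1 negative cell and Ifi44 in 1 positive and 2 negative cells. Of NRF2 and detoxification genes, 4 of 34 were at least 2-fold higher and 1 lower (median 0.05, and -0.12 with spike-in scaling). The higher ones were Adh7 and Adh1, given above, Gclc, a subunit of the enzyme that begins glutathione synthesis (79.4 and 36.2 CPM, 1.11), and Gstt1 (9.27 and 0.527 CPM). Mammary luminal genes had a median of -0.56 over only 7 of 25 genes, with 1 at least 2-fold higher and 2 lower, and basal and mesenchymal genes 0.01 over 14, with 1 higher and 2 lower.

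Beyond these lists, the genes that held the largest ratios after leaving out the cell that shrank them most were named by rule, 12 in each direction. Sesn1, a stress-responsive inhibitor of mTORC1 (chr10:41809935-41908424), had 466 CPM in positive (Poisson 95% interval 460 to 472), 65.4 CPM in negative (63.8 to 67.1) and 64.96 CPM in DiD- cells (log2 ratio 2.81, and 2.64 to 3.07 with any 1 cell left out). Single positive cells ranged from 1.03 to 1171 CPM with a median of 528 CPM, and negative cells from 0 to 364 CPM with a median of 28.7 CPM. It had a count in 11 of 11 positive and 15 of 21 negative cells, 7 positive cells were above every negative cell, and positive cells 37 and 82 were the low ones. Tfeb, a transcription factor of lysosome genes, had 23.4 and 2.96 CPM (2.62) with counts in 8 of 11 and 3 of 21 cells. Mttp, a lipid transfer protein, had 39.4 and 4.20 CPM (2.96), and Amy1, an amylase whose locus overlaps Rnpc3, 30.3 and 3.13 CPM (2.92), with counts in 7 of 11 and 3 of 21 cells. Map4k2, a kinase, had 14.97 and 1.17 CPM (2.88), and 3 positive cells were above every negative cell. These were cells 17, 43 and 83, with 220, 267 and 295 counts, and no other positive cell had more than 9.

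The other higher genes were Wdr11 (28.6 and 0.967 CPM, 3.91), Myo5c (23.4 and 0.656 CPM, 3.88), Ahcyl2 (15.3 and 0.419 CPM, 3.52), Rhot2 (19.1 and 1.13 CPM, 3.24), Pcyt1a (30.5 and 2.79 CPM, 3.05), Lamb2 (30.4 and 3.28 CPM, 2.87) and Cracr2b (17.8 and 2.09 CPM, 2.60). For Wdr11 and Cracr2b, the 6 positive cells with a count were all above every negative cell, and the other 5 positive cells had none. Rhot2, Pcyt1a, Mttp, Amy1, Ube2c and St3gal6 overlap other coding genes, so part of their reads may belong to a neighbour.

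Of the lower genes, Ube2c was in the G2/M list and has been given. Nrp1, a co-receptor of semaphorins and VEGF (chr8:128358604-128503363), had 0.302 and 28.9 CPM (-4.52), with counts in 3 of 11 and 16 of 21 cells, no positive cell above 1.28 CPM, and 14 negative cells above every positive cell. Arhgap19, a GTPase-activating protein, had 0.113 and 29.2 CPM (-4.76). Nsl1, a kinetochore component, was at 0 in all positive cells, and its 14.3 CPM in negative cells was at least 253-fold the limit of 3 counts over the positive set. Pank4 had 1.17 and 37.1 CPM (-4.13) and Slf2, of the SMC5/6 pathway, 1.13 and 26.5 CPM (-3.69), with 14 negative cells above every positive cell. Others were Tor4a (-4.31), Cerk (-3.85), Rrp12 (-3.81), St3gal6 (-3.76) and Slc38a1 (-3.56). These genes are extremes of a ranking on the same cells that set the groups, and they describe these cells only.

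**Figure D5:**
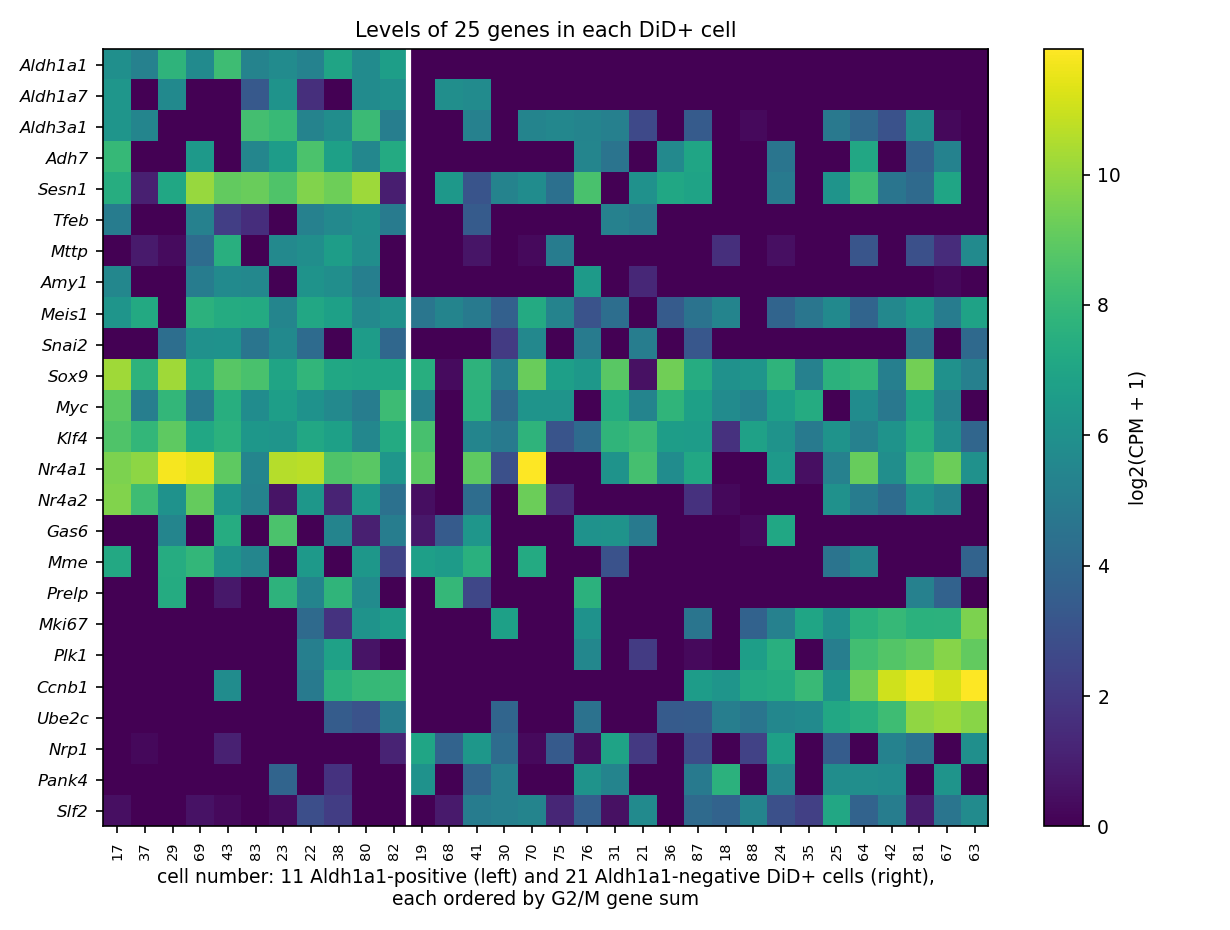
Level as log2(CPM + 1) of 25 genes named in the text in each DiD+ cell, with 11 Aldh1a1-positive cells left of the white line and 21 negative cells right of it, each ordered by the G2/M sum. Sesn1 is above the negative median in 9 of 11 positive cells, and Mki67, Plk1, Ccnb1 and Ube2c are high mainly in the negative cells at the right.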

How the data were processed

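Single PyMT-Bo1 cells were sequenced from SMARTer v4 and Nextera XT libraries with ERCC spike-in RNA. The authors aligned reads with STAR to GRCm38 (mm10) supplemented with the spike-in and transgene sequences and estimated counts with RSEM, and the estimated counts per gene and cell that they deposited were used, rounded to whole numbers. A table of BASiCS-normalized values, a signal scaled by the authors with the spike-ins, was deposited too and served as an alternative. No value of the authors' own comparison of DiD+ and DiD- cells was used, and no column belonged to another sample. STAR and RSEM versions and the annotation release are not given in the sources used here. The libraries hold no molecular identifiers.

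Cells were grouped by the Aldh1a1 count. Counts on 47729 mouse genes (92 spike-ins and 4 transgenes left out) were summed over the cells of a set, scaled to CPM and compared as log2 ratios with a pseudocount of 1 CPM, over genes with at least 1 CPM in a set. Intervals are exact Poisson (sums) and Clopper-Pearson (shares) at 95%. Each cell was left out in turn. Symbols were found for 47224 genes, and coordinates are from GENCODE on GRCm38. Promoter windows are from RefSeq (GRCm38.p6). The members and lists were chosen with earlier results of these data known. Genes outside the lists were named as the 12 highest and 12 lowest ratios after leaving out the cell that shrinks the ratio most, among genes with a symbol, at least 10 CPM in the higher set and a count in at least 0.5 of its cells. Some genes that these rules name are not reported here.

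Alternatives were pseudocounts of 0.1 and 10 CPM, means of CPM per cell, spike-in scaling, TMM factors (edgeR 4.0.16), median-of-ratios factors (DESeq2 1.42.0) on the summed counts, BASiCS values, a minimum of 10 Aldh1a1 counts, other CPM minimums, cells thinned to one depth, and sets without wells that held macrophage or other host markers. Leaving out wells with fewer than 4 of the 7 tumor markers was added after seeing the data. Python 3.11.15, numpy 2.4.6, pandas 2.3.3, scipy 1.17.1, matplotlib 3.10.9, biopython 1.88 and R 4.3.3 were used. The calculation of the ratios was tested on simulated data with known changes. All simulated cells of a set were drawn from the same profile, so the spread between cells was not part of that test.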

Additional observations from a re-analysis of the deposited data

How the results depend on the processing

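The median ratio of G2/M genes kept its sign and its position below -1 under each alternative. TMM factors and DESeq2 size factors moved none of the values followed past the range that leaving out 1 cell gave. A minimum of 10 Aldh1a1 counts chose the same cells for both sets, so its values could not differ and it is no check. With spike-in scaling the G2/M median was -2.58. With Aldh1a1 included, the retinoid synthesis and uptake median was then -0.18 (0.32 without spike-in scaling) and the stem-like median -0.27 (0.05 without it). Spike-in scaling gave 943 genes at least 2-fold higher and 3133 genes at least 2-fold lower. Mouse RNA per spike-in count had medians of 52.6 and 51.8 in the positive and negative sets and means of 45.7 and 59.4, and its part in this was not tested. With a pseudocount of 10 CPM 302 genes were higher and 431 lower, and with a minimum of 10 CPM 747 and 864. With no minimum the retinoid synthesis and stem-like medians were 0, since genes without counts enter at a ratio of 0. Without wells with host cell markers the retinoid synthesis median was 0.10 (0.05 without Aldh1a1) and the immediate early median 0.54. Without the wells with few tumor markers, chosen after seeing the data, the retinoid synthesis median was 0.0923 (0.01 without Aldh1a1).

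With 1 cell left out and the 1 CPM minimum applied again, medians ranged from -1.57 to -0.16 for S phase and from -2.02 to -1.41 for G2/M genes. Immediate early medians ranged from 0.63 to 1.05. With Aldh1a1 included, medians ranged from 0.15 to 0.50 for retinoid synthesis and from 0.00 to 0.21 for stem-like genes. Without Aldh1a1 and with the genes compared held fixed, the retinoid range was 0.00 to 0.48 and the stem-like range -0.09 to 0.20. The genes at least 2-fold higher numbered 1333 to 1539, and the genes at least 2-fold lower 1873 to 2195. Single genes turned with 1 cell: Crabp1 ranged from -5.27 to 1.34, Lgr6 from -0.57 to 3.39, Sox2 from -0.31 to 2.21 and Ifi44 from -4.52 to 0.39. Lgr6 was also at -0.77 without wells with macrophage markers and at -0.75 without those with host cell markers. No paired analysis was possible because the cell numbers only name cells and pair none between the sets. With 11 and 21 cells from pooled mice, counting intervals cover only the reads and not the spread between mice.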
